A study of Mus musculus with 12 samples.

Results

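The genes described here encode G protein-coupled receptors for amines, lysophospholipids, nucleosides and nucleotides, together with receptors for endothelin, bradykinin, neuropeptide FF and neuromedin U and the orphan genes that carry a Gpr symbol. They were chosen by name, and a gene was kept if its log2 value was at least 1 in 3 or more of the 12 libraries. Of 143 symbols that fit the names, 98 met this level, out of 28244 genes listed and 17674 that met the same level in the whole table. The level is the value that chose them, so that a gene is in the set is not a result. Just inside the limit lay Gpr174, Gpr183 and Gpr65, for which the log2 value that decided was 1.06, and just outside it lay Gpr26 at 0.94, Gpr34 at 0.74 and Htr5b at 0.66. The names are broader than the receptors. Gpr89 encodes an ion channel of the Golgi, Gpr155 a cholesterol sensor of the lysosome and Gpr137b a lysosomal membrane protein, so the Gpr symbols were read as a group of names.

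Receptors of this class span the membrane, bind a ligand outside the cell and activate heterotrimeric G proteins inside it. Gs raises cyclic AMP, Gi lowers it, Gq activates phospholipase C, and G12 and G13 act on the cytoskeleton. Regulator of G protein signaling (RGS) proteins end the G protein signal, and receptor kinases and arrestins silence the receptor. In growth plate and bone such receptors read sympathetic amines, the nucleotides and adenosine that cells release, and lipid mediators such as lysophosphatidic acid (LPA) and sphingosine 1-phosphate (S1P).

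RNA was sequenced from pellets of mesenchymal progenitors that were isolated from the ends of femurs and tibiae of C57/BL6 mouse pups aged 5 or 6 days. All pellets spent 7 days in chondrogenic medium, and osteogenic medium followed. The groups were D7 (0 days in osteogenic medium), D8 (1 day), D10 (3 days) and D28 (21 days), with 3 libraries each. No transgene, knockout or untreated arm entered, and no group stayed in chondrogenic medium beyond D7. Each contrast with D7 therefore changes the medium together with time, and their parts cannot be told apart. D10 against D8 and D28 against D10 compare times within osteogenic medium. Whether replicates came from separate cultures or animals is not stated in the labels, and p-values then measure only the spread between these libraries. Values are log2 of an equalized read count plus 1, and a log2 fold change is a difference on that scale, which understates the change of low genes. A gene was called when its log2 fold change was at least 1 in either direction with an adjusted p under 0.05 by limma, fitted across all 17674 genes.

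Depth relative to the other libraries ran from 0.73 in D10 replicate 1 to 1.31 in D28 replicate 1. The value that stands for 3 reads differed between libraries and was 2.87 at most. Replicates of a time point correlated at 0.972 to 0.985 across genes. D28 replicate 2 stood apart in the summed log2 level of 13 macrophage markers, at 12.69, where the other 11 libraries lay between 10.06 and 10.72. All 9 chondrocyte markers were over 3 reads in every library, with time-point means of at least 8.29. Of the 9, 5 were called lower and 0 higher at D10 against D7 (median log2 fold change -1.17), and 3 lower and 0 higher at D28 against D7. Matn3, a cartilage matrix gene, had means of 12.66 at D7 and 8.29 at D10. Of 10 osteoblast markers 5 were higher and 4 lower at D10 against D7, and 5 higher and 2 lower at D28 against D7. Bglap, the osteocalcin gene, had means of 3.21 at D7 and 8.98 at D28, whereas Ibsp, the bone sialoprotein gene, had means of 15.5 at D7 and 9.15 at D10. The summed log2 level of the osteoblast markers was 18.90 to 19.38 at D7 and 18.95 to 19.19 at D28. The part of these shifts in the receptor changes was not tested. All 7 adipocyte markers were called higher at D28 than at D7 and at D10, and all 8 skeletal muscle markers were called lower at D28 than at D7. In such bulk values fewer cells of a type and less RNA per cell cannot be told apart.

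The receptor genes were low in these pellets. Their median level over the 12 libraries was 4.05, against 7.87 for all genes tested, and the range was 0.43 to 11.3. Per kilobase of exon, the highest mean log2 levels over all libraries were those of Gpr180 (9.70), Gpr108 (9.65), Lpar1 (8.73) and Gpr153 (8.47). Of the 98 genes, 50 were over 3 reads in all libraries. Another 7 never exceeded 3 reads, namely Gpr151, Gpr158, Gpr171, Gpr174, Gpr20, Gpr22 and Htr1f. A library at or above 1 was found at a single time point for Adrb1, Gpr183, Gpr20, Htr1f and Npffr2, and such genes could enter the set only through that time point.

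In the first day of osteogenic medium (D8 against D7) 10 receptor genes were called higher and 5 lower, or 10.2% and 5.1%, where 3.23% and 3.81% of all genes tested were called. By D10 against D7 these counts were 22 higher and 19 lower, or 22.4% and 19.4%, against 8.5% and 10.4% of all genes. Between D8 and D10, where 9.66% of all genes were called in either direction, 8 were higher and 7 lower, or 8.16% and 7.14%, beside 4.08% and 5.58% of all genes. From D10 to D28 17 were called higher and 21 lower, or 17.3% and 21.4%, beside 13.8% and 13.7% of all genes. At D28 against D7 13 were higher and 9 lower, or 13.3% and 9.18%, where 8.63% and 8.66% of all genes were called. With these call limits the share of called receptor genes was furthest above the background at D10 against D7 and closest to it for the lower calls at D28 against D7. The excess depended on the limit on the fold change. By the adjusted p of limma alone, 46.9% of the receptor genes differed at D10 against D7, beside 41.2% of all genes, and 23.5% beside 21% at D8 against D7. By that rule the receptor share was below that of all genes at D10 against D8 (23.5% beside 28.8%), D28 against D10 (44.9% beside 52.4%) and D28 against D7 (35.7% beside 37.3%). Leaving out 1 library moved 2 of these counts by more than 1.5 times. Without D8 replicate 2 the D8 falls numbered 3, and without D8 replicate 3 or D10 replicate 2 the falls between D8 and D10 numbered 4. Median log2 fold changes over the 98 genes were -0.10, -0.04, -0.07, 0.01 and -0.20 for D8 against D7, D10 against D8, D10 against D7, D28 against D10 and D28 against D7. The genes thus moved both ways about a center near 0, as did all genes tested, with medians of 0.03, 0, 0.05, -0.10 and -0.03.

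**Figure D1:**
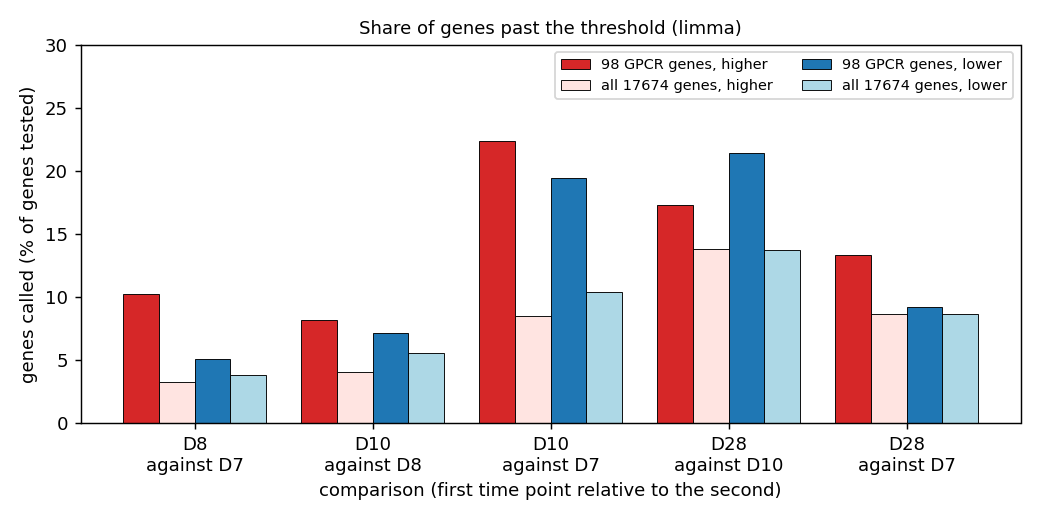
Share of genes called by limma in each of the 5 comparisons, in percent of genes tested, for the 98 receptor genes (dark bars) and for all 17674 genes (light bars), higher in red and lower in blue. At D10 against D7 22.4% of the receptor genes were called higher and 19.4% lower, beside 8.5% and 10.4% of all genes.

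Called genes were sorted by shape over time, from the calls of the same fit. A D10 peak, in which D10 was above both D7 and D28 while these did not differ by a call, was found for 13 receptor genes, or 13.3%, beside 4.41% of all genes tested. Among them were Adora2a, Adra2a, Bdkrb2, Drd1, Gpr137b, Gpr176, Gpr63, Gpr84, Htr1f, Htr2a, Lpar2 and Npffr2. As Htr1f and Npffr2 reached the filter level at D10 alone, they could enter the set only where they peaked. Among the genes with a library at or above 1 at 2 or more time points, 11 of 93 receptor genes peaked at D10, or 11.8%, beside 4.38% of all 17606 such genes, a limit chosen after the data were seen. A D10 dip was found for Adra2c, Bdkrb1, Htr1d and S1pr1, which is 4.08% beside 4.16% of all genes. Adra1b, Adra2b, Gpr155 and Lpar6 rose late, which is 4.08% beside 3.89% of all genes, and Gpr141 fell late, 1.02% beside 3.44%. Chrm3, Gpr75 and Htr1b rose early, 3.06% beside 1.13%, and Gpr153, Gpr20, Htr6 and P2ry6 fell early, 4.08% beside 2.06%. Another 29 had calls that fit none of these shapes, or 29.6% beside 19.1% of all genes, and 40 had no call, or 40.8% beside 61.8%. The contrasts of D10 with D7 and with D28 share the D10 libraries, so a peak or dip leans on these 3 libraries in both.

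**Figure D2:**
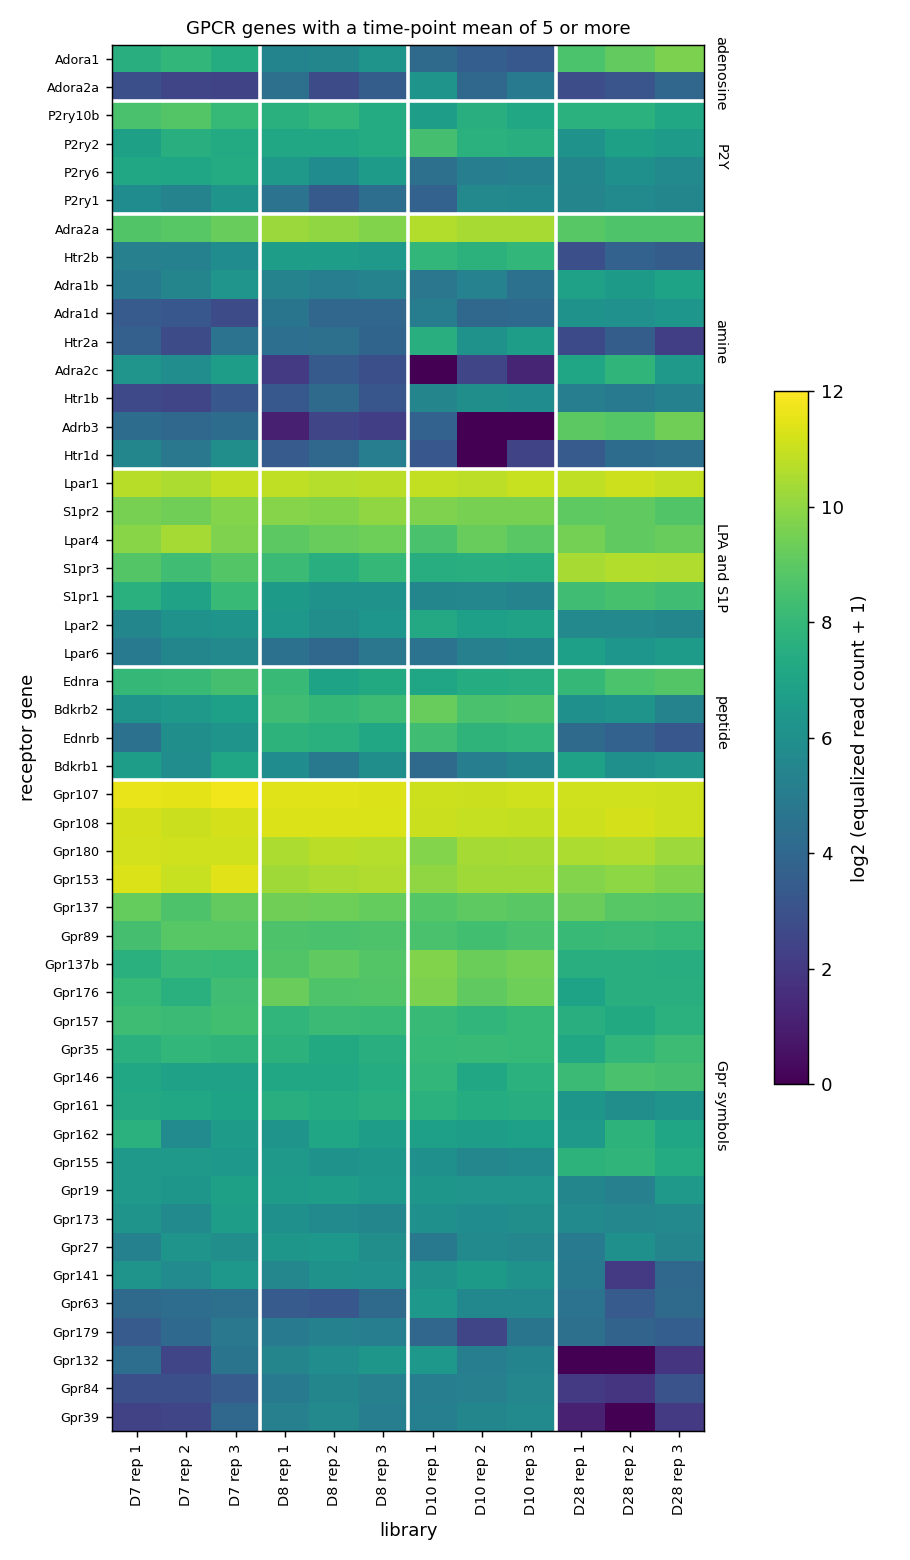
Log2 (equalized read count + 1) of 49 of the 52 receptor genes whose highest time-point mean was at least 5, as color in each of the 12 libraries (columns, in time order) and grouped by receptor family (rows). Adrb3 is brightest in the D28 libraries, while Htr2b, Ednrb, Gpr39 and Gpr132 are darkest there.

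The sequence before the start of the genes was searched on both strands for 3 short motifs. They were the cyclic AMP response element TGACGTCA, the TATA box TATAAA and the letters TGANTCA. The last took any base at N and is looser than the AP-1 site. The search used 300-base RefSeq promoters of GRCm38.p6 (250 bases before the gene's start and 50 after it). The factors of the response element and of AP-1 act downstream of Gs and Gq signals, and such sites are short enough to occur by chance. Promoters were matched for 76 of the 98 genes, 108 promoters in all. The TGANTCA letters were in 13 of them, or 12%, and in 7.81% of all 32851 promoters. The genes were Adora1, Adra1b, Gpr146, Gpr3, Gpr35, Gpr39, Hrh1, Htr2b, Lpar2, P2ry10, P2ry10b and P2ry14. The cyclic AMP response element was in 1 of 108, that of S1pr2, and in 1.79% of all promoters. The TATA letters were in 8 of 108, or 7.41%, and in 13.6% of all promoters. The 3 promoters printed here belong to genes with large changes in opposite directions. Htr2b and Gpr39 were higher at D10 and lower at D28, whereas Adora1 was lower at D10 and higher at D28. All carry the TGANTCA letters, shown in capitals, as TGAGTCA in Gpr39 and as TGAATCA in Htr2b and Adora1. Counted back from the base before the gene's start as -1, the letters begin at -163 in Htr2b, -133 in Gpr39 and -104 in Adora1. A match describes the letters and no binding was measured. In the order printed, the regions are chr1:86111931-86112230 on the minus strand, chr1:125676746-125677045 on the plus strand and chr1:134235408-134235707 on the minus strand.
Htr2b: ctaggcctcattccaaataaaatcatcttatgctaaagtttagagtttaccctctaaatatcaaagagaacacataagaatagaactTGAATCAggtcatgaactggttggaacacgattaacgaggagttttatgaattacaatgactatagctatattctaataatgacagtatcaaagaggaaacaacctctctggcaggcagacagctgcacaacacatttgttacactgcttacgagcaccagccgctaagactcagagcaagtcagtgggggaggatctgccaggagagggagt
Gpr39: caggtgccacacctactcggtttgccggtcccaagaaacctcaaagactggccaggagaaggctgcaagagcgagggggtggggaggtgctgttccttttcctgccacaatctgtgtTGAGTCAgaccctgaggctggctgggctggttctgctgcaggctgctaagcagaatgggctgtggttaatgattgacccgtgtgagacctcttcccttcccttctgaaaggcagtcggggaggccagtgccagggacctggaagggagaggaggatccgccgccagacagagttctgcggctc
Adora1: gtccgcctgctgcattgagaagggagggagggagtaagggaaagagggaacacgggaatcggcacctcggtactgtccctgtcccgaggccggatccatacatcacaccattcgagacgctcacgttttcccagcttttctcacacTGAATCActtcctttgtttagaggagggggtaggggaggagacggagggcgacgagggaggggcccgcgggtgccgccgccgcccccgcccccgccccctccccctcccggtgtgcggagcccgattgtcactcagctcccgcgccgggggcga

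Adenosine receptors changed in opposite directions. Adora1 (chr1:134199223-134235431, minus strand), which encodes the Gi-coupled adenosine receptor, had log2 values of 7.55, 7.95 and 7.45 at D7, 5.43, 5.52 and 6.19 at D8, 4.16, 3.58 and 3.29 at D10, and 8.60, 9.12 and 9.62 at D28. It fell with each step to D10 and rose above its D7 level by D28, and no 2 time points overlapped. The log2 fold change was -3.98 (standard error 0.31, adjusted p = 9.7e-08, limma) for D10 against D7 and 5.44 for D28 against D10, and D28 was above D7 by 1.46 (standard error 0.31, adjusted p = 0.0014, limma). Of its exon length 20.1% lies opposite exons of Mybph, a myosin-binding protein gene of muscle, whose D7, D8, D10 and D28 means were 7.80, 6.35, 3.38 and 3.80. The kit marks strand, but whether counting used it is not stated, so reads of the pair cannot be told apart there. The summed log2 level of 8 skeletal muscle markers was 11.74 to 12.04 at D7, 8.66 to 9.09 at D10 and 7.09 to 8.04 at D28, and the part of such reads in the early fall of Adora1 was not tested.

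Adora2a (chr10:75316877-75334784, plus strand), a Gs-coupled adenosine receptor gene, had log2 values of 2.91, 2.52 and 2.46 at D7, 4.43, 2.81 and 3.55 at D8, 6.19, 4.05 and 4.99 at D10, and 2.82, 3.18 and 3.95 at D28. The D10 libraries were all above the D7 libraries, which were at or near the 3-read level. D10 exceeded D7 by 2.45 (standard error 0.56, adjusted p = 0.0023, limma). The later fall of -1.76 was no longer called without D10 replicate 1 (-1.20, adjusted p = 0.087, limma) or D28 replicate 1 (-1.51, adjusted p = 0.058, limma). Adora2b, the Gs-coupled receptor gene of lower adenosine affinity, had no call, with values of 2.37, 4.09 and 4.22 at D7, 3.29, 3.39 and 3.71 at D8, 3.54, 4.05 and 4.21 at D10, and 2.52, 2.66 and 3.71 at D28. Its groups overlapped at each step, and Adora3 did not meet the level.

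Genes that make, cleave or move the ligands of these receptors changed as well. Of 20 tested, 1 was called higher and 6 lower at D10 against D7, and 6 were higher and 8 lower at D28 against D10, or 35% and 70% in all, beside 18.9% and 27.5% of all genes tested. Nt5e, the ectonucleotidase CD73 that makes adenosine from AMP, was at 13.40, 13.35 and 13.33 at D7, 13.54, 14.03 and 13.95 at D8, 13.81, 14.43 and 14.69 at D10, and 11.28, 10.87 and 10.95 at D28. It fell by 3.28 on the log2 scale from D10 to D28 (standard error 0.19, adjusted p = 1.7e-09, limma), with the D28 libraries below all others. Entpd3, which removes phosphates from ATP and ADP, moved the other way, and stood higher at D28 than at D10 by 5.62 (standard error 0.35, adjusted p = 3.5e-09, limma). The pyrophosphatase gene Enpp3 rose by 5.37 in the same contrast. Panx3, a channel gene of chondrocytes and osteoblasts that releases ATP, fell by 2.01 on the log2 scale at D10 against D7 (adjusted p = 6.1e-05, limma) and rose by 3.70 to D28. The adenosine kinase gene Adk fell by 1.31 at D10 against D7 (adjusted p = 6.4e-05, limma).

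Of 7 genes with a P2ry symbol, 5 had a call in at least 1 comparison, or 71.4%, where 38.2% of all genes tested had one. This group was formed by symbol and not by ligand, and P2ry10 and P2ry10b are in it by name. P2ry6 (chr7:100937630-100974649, minus strand), the UDP receptor gene, had log2 values of 7.14, 7.09 and 7.40 at D7, 6.51, 5.82 and 6.65 at D8, 4.45, 5.13 and 5.25 at D10, and 5.53, 6.01 and 5.69 at D28. The D10 libraries were the lowest and D28 stayed below D7 without overlap. The change was -2.27 (standard error 0.29, adjusted p = 1.6e-05, limma) for D10 against D7 and -1.47 (standard error 0.29, adjusted p = 0.00088, limma) for D28 against D7. P2ry10b had values of 8.55, 8.79 and 8.02 at D7, 7.62, 7.94 and 7.40 at D8, 6.72, 7.54 and 7.19 at D10, and 7.66, 7.66 and 7.18 at D28. It fell by D10 and its other contrasts were not called. D10 against D7 gave -1.30 (standard error 0.24, adjusted p = 5e-04, limma).

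P2ry2, a receptor gene for ATP and UTP, was at 6.83, 7.56 and 7.33 at D7, 7.21, 7.14 and 7.40 at D8, 8.46, 7.66 and 7.54 at D10, and 6.16, 6.83 and 6.65 at D28. Its mean was highest at D10, and its single call was the fall to D28. That contrast was -1.34 (standard error 0.26, adjusted p = 0.00048, limma), and D10 against D7, at 0.65, was not called. P2ry1, the ADP receptor gene, was at 5.85, 5.38 and 6.21 at D7, 4.57, 3.39 and 4.35 at D8, 3.76, 5.64 and 5.58 at D10, and 5.46, 5.74 and 5.53 at D28. The D8 libraries were all below those of D7, and D10 replicate 1 lay far under the other D10 libraries. D8 against D7 was -1.71 (standard error 0.47, adjusted p = 0.016, limma). This call was lost without D7 replicate 1 (-1.69, adjusted p = 0.053, limma), D7 replicate 3 (-1.51, adjusted p = 0.059, limma) or D8 replicate 2 (-1.35, adjusted p = 0.081, limma). An antisense gene, Gm37035, covers 23.1% of the P2ry1 exon length.

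The remaining P2Y genes were low. P2ry14, the UDP-glucose receptor gene, had values of 1.54, 2.95 and 4.00 at D7, 4.62, 4.16 and 3.55 at D8, 3.76, 4.19 and 2.79 at D10, and 2.68, 1.84 and 3.37 at D28 and no call. P2ry13, an ADP receptor gene of blood cells, had values of 0, 0.74 and 0 at D7, 0, 0 and 1.46 at D8, all 0 at D10, and 1.81, 3.37 and 0 at D28 and no call. Its highest value was in D28 replicate 2, the library with the highest summed level of 13 macrophage markers, at 12.69 beside 10.62 and 10.61 in the other D28 libraries. The part of such cells in P2ry13 was not tested. P2ry10 was lower than its copy P2ry10b in all libraries, and its rise from D10 to D28 (1.76) fell short of a call without D10 replicate 3, D28 replicate 1 or D28 replicate 2, at 1.53, 1.71 and 1.57. P2ry12 and P2ry4 did not meet the level.

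Among lysophospholipid receptors 6 of 9 genes had a call in some comparison, or 66.7% beside 38.2% of all genes tested, and the best covered of them had none. Lpar1, the LPA receptor 1 gene, had log2 values of 10.70, 10.50 and 10.90 at D7, 10.83, 10.67 and 10.77 at D8, 10.91, 10.80 and 11.01 at D10, and 10.87, 11.07 and 10.91 at D28. All libraries lay within a narrow band and no contrast was called. S1pr2, an S1P receptor gene that couples to G12 and G13, had values of 9.54, 9.42 and 9.76 at D7, 9.83, 9.72 and 10.03 at D8, 9.70, 9.56 and 9.53 at D10, and 9.0, 9.08 and 8.73 at D28. It too had no call.

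S1pr1 (chr3:115710433-115715072, minus strand), the Gi-coupled S1P receptor 1 gene, had log2 values of 7.64, 6.93 and 8.12 at D7, 6.53, 6.14 and 6.14 at D8, 5.53, 5.55 and 5.35 at D10, and 8.33, 8.49 and 8.30 at D28. The D10 libraries were below all others and the D28 libraries above them. It fell at D10 against D7 by 2.09 (standard error 0.25, adjusted p = 9.6e-06, limma) and rose to D28 by 2.90 (standard error 0.25, adjusted p = 1.6e-07, limma). S1pr3 (chr13:51408639-51422797, plus strand) had values of 8.80, 8.34 and 8.80 at D7, 8.17, 7.59 and 7.98 at D8, 7.46, 7.57 and 7.48 at D10, and 10.42, 10.61 and 10.58 at D28. It shared the dip of S1pr1 and went on to a D28 level above D7 in all libraries. D28 exceeded D10 by 3.03 (standard error 0.16, adjusted p = 7.4e-10, limma) and D7 by 1.89 (standard error 0.16, adjusted p = 3.1e-07, limma). Per kilobase of exon the mean log2 level of S1pr3 at D28 was 8.38, near that of Lpar1 at 8.85.

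Lpar6 had log2 values of 4.92, 5.52 and 5.65 at D7, 4.51, 4.07 and 4.77 at D8, 4.57, 5.23 and 5.40 at D10, and 6.75, 6.31 and 6.57 at D28. It was highest at D28 with no overlap with the other time points. D28 against D10 was 1.48 (standard error 0.32, adjusted p = 0.0012, limma), and the call against D7 (1.18) was lost without D7 replicate 1, at 0.96. Lpar4, on the X chromosome, had values of 9.87, 10.40 and 9.69 at D7, 8.96, 9.21 and 9.35 at D8, 8.57, 9.21 and 8.93 at D10, and 9.47, 9.07 and 9.23 at D28. It was lower at D10 than at D7 by 1.08 (standard error 0.19, adjusted p = 0.0003, limma). The difference was under the fold limit without D10 replicate 1 (-0.91) or D7 replicate 2 (-0.88). Lpar2 had values of 5.49, 6.10 and 6.21 at D7, 6.41, 5.93 and 6.31 at D8, 7.25, 6.75 and 6.93 at D10, and 5.66, 5.66 and 5.49 at D28 and peaked at D10. Its fall from D10 to D28 was -1.38 (standard error 0.25, adjusted p = 0.00029, limma), while the D10 rise of 1.04 was 0.91 without D10 replicate 1, 0.82 without D7 replicate 1 and 0.97 with median-of-ratios scaling. Lpar3 and Lpar5 were near the 3-read level, and of these Lpar5 had 1 call, between D8 and D10, which was lost with low values raised to 2.87. S1pr4 and S1pr5 did not meet the level.

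Of 17 genes for enzymes and transporters of these lipids, 4 were higher and 2 lower at D10 against D7, and 3 were higher and 1 lower at D28 against D10, or 35.3% and 23.5% in all, beside 18.9% and 27.5% of all genes tested. Enpp2, which encodes autotaxin, the main source of extracellular LPA, was at 14.15, 14.42 and 14.03 at D7, 13.27, 13.55 and 13.82 at D8, 14.26, 14.17 and 14.34 at D10, and 14.38, 14.45 and 14.32 at D28 with no call in any contrast. Sgpl1, the lyase that breaks down S1P, was higher at D10 than at D7 by 1.59 (standard error 0.13, adjusted p = 1.9e-07, limma). The S1P exporter gene Spns2 fell by 1.97 at D10 against D7 (standard error 0.31, adjusted p = 1e-04, limma) and stayed lower at D28, by 1.79. Plpp3, a phosphatase that clears LPA and S1P, rose at both D10 (1.37) and D28 (2.37) against D7, while Plpp1 fell at D10 (-1.34).

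**Figure D3:**
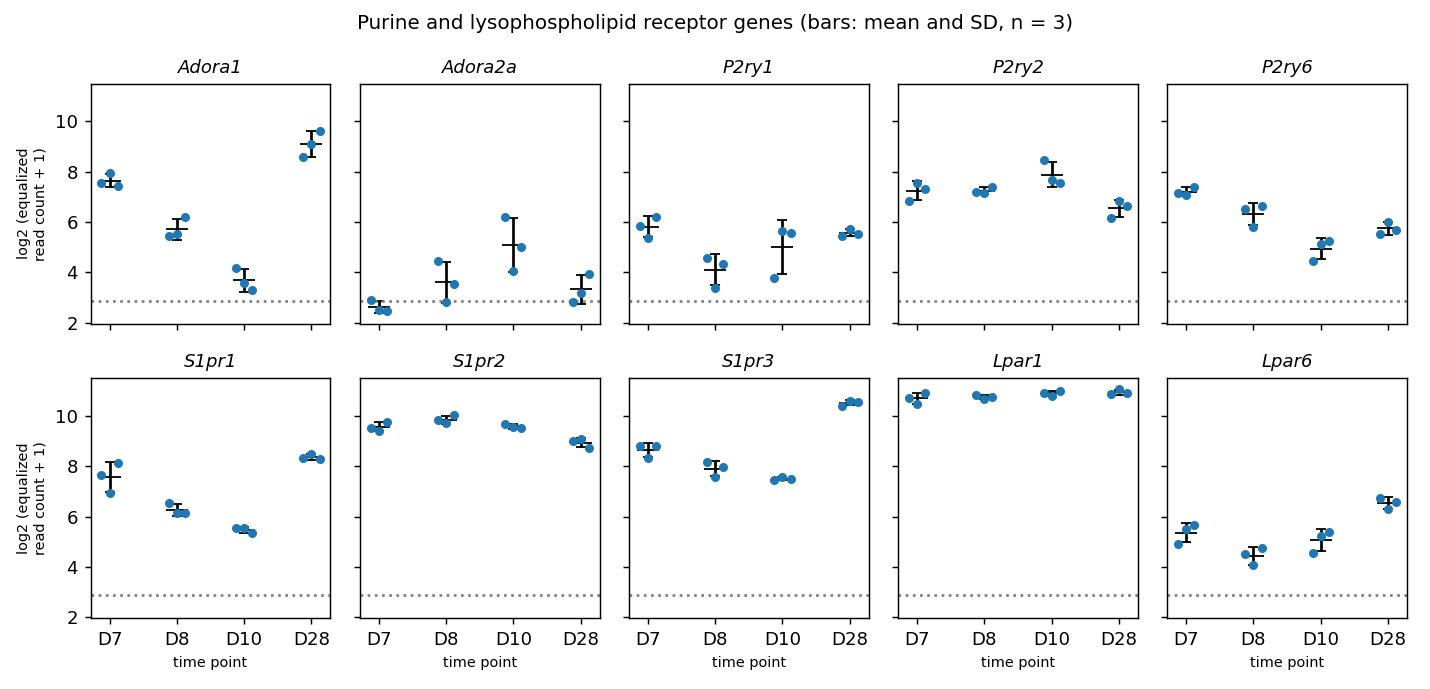
Log2 (equalized read count + 1) of 10 purine and lysophospholipid receptor genes by time point, with 1 point per library and bars for mean and SD (n = 3); the dotted line is the highest 3-read level, 2.87. Adora1, S1pr1 and S1pr3 dip at D10 and are highest at D28, whereas Lpar1 stays between 10.50 and 11.07.

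Of 22 amine receptor genes 9 were called higher and 8 lower at D10 against D7 (77.3% in all, beside 18.9% of all genes tested). From D10 to D28 7 were higher and 5 lower, or 31.8% and 22.7%, beside 13.8% and 13.7% of all genes. At D28 against D7 7 were higher and 2 lower, or 31.8% and 9.09%, beside 8.63% and 8.66%, so the lower calls were near the background. In level the family was low, with 7 of 22 genes over 3 reads in all libraries.

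The beta-adrenergic gene Adrb3 rose late. Adrb3 (chr8:27225776-27250616, minus strand), which encodes the Gs-coupled beta-3 receptor known from adipocytes, had log2 values of 4.22, 4.00 and 4.22 at D7, 1.06, 2.52 and 2.22 at D8, 3.76, 0 and 0 at D10, and 8.96, 8.85 and 9.40 at D28. The D28 libraries lay above all others by more than 4 on the log2 scale, and 2 of the 3 D10 libraries had no reads. D28 against D7 was 4.92 (standard error 0.76, adjusted p = 1e-04, limma). Against D10 the rise was 7.81, and it was 9.07 without D10 replicate 1, the single D10 library with reads, and 5.90 with low values raised to the 3-read level. The earlier falls were less firm. The D10 fall of 2.89 was -0.98 with low values raised to 2.87, and that at D8 (-2.21, adjusted p = 0.05, limma) was lost without any 1 of the D7, D8 or D28 libraries, with values from -2.51 to -1.77. An antisense gene, Gm45470, covers 24.9% of its exon length.

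Adrb1, the beta-1 receptor gene, had 3 reads or fewer in all but D8 replicate 3, with values of 1.62, 1.12 and 2.74 at D8, and its calls around D8 were gone with low values raised to 2.87.

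Adipocyte markers moved with Adrb3. The summed log2 level of the 7 markers was 11.96 to 12.21 at D7, 10.83 to 11.26 at D8, 9.90 to 10.47 at D10 and 15.37 to 15.83 at D28, and each of the 7 exceeded 3 reads in some library. Adipoq was at a mean of 4.02 at D10 and 12.50 at D28, and Lep was at 0 in the D10 libraries. The Adrb3, Adora1 and S1pr3 values were lowest and highest at the same time points as this sum, and its part in their changes was not tested.

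Alpha-2 genes, which encode Gi-coupled receptors, each followed their own course. Adra2a (chr19:54044151-54048982, plus strand) had log2 values of 8.75, 8.87 and 9.19 at D7, 10.18, 10.02 and 9.73 at D8, 10.62, 10.41 and 10.43 at D10, and 8.86, 8.69 and 8.69 at D28. The D8 and D10 libraries lay above all those of D7 and D28. D10 exceeded D7 by 1.55 (standard error 0.14, adjusted p = 4.3e-07, limma) and D28 fell from it by 1.74 (standard error 0.14, adjusted p = 5.9e-08, limma). The D8 rise of 1.04 was 0.94 without D7 replicate 1 or D8 replicate 1 and 0.99 with median-of-ratios scaling, and was then not called. Adra2c (chr5:35278319-35281763, plus strand) had values of 6.28, 5.89 and 6.69 at D7, 2.03, 3.39 and 2.92 at D8, 0, 2.50 and 1.22 at D10, and 7.04, 7.84 and 6.45 at D28. No D10 library exceeded 3 reads. It was at least 10.7-fold lower at D10 than at D7 (adjusted p = 4.6e-06, limma) and by D28 had risen at least 18.8-fold from there (adjusted p = 5e-07, limma), with the group at or under 3 reads set to 2.87, the highest 3-read level of any library. Adra2b was at 0 at D7 and D10 and at 4.64, 3.92 and 4.69 at D28, which is higher by at least 2.91-fold (adjusted p = 1.7e-05 against D7, limma).

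The alpha-1 genes, Gq-coupled, were highest at D28 where well covered. Adra1d had log2 values of 3.45, 3.27 and 2.79 at D7, 4.68, 3.95 and 3.96 at D8, 5.05, 4.05 and 4.11 at D10, and 6.16, 6.08 and 6.31 at D28. Its D28 libraries lay above all the others. D28 against D7 was 3.01 (standard error 0.38, adjusted p = 1.3e-05, limma) and D28 against D10 1.78 (standard error 0.38, adjusted p = 9e-04, limma). The D10 rise of 1.23 was 0.91 without D10 replicate 1 and 1.05 without D7 replicate 3 and was then not called (adjusted p = 0.077 and 0.061, limma). Adra1b had values of 5.00, 5.48 and 6.28 at D7, 5.37, 5.12 and 5.35 at D8, 4.77, 5.32 and 4.49 at D10, and 6.85, 6.56 and 6.96 at D28. D28 was highest with no overlap. D28 exceeded D10 by 1.93 (standard error 0.33, adjusted p = 0.00015, limma), and the call against D7 (1.21) was lost without D7 replicate 1 (0.91, adjusted p = 0.054, limma). Adra1a was at 3.55, 3.27 and 3.56 at D7 and never exceeded 3 reads at D10, a fall of at least 1.5-fold whose call did not hold without D10 replicate 2, D7 replicate 1, D7 replicate 2 or D7 replicate 3 (-1.34, -2.0, -2.14 and -2.0).

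**Figure D4:**
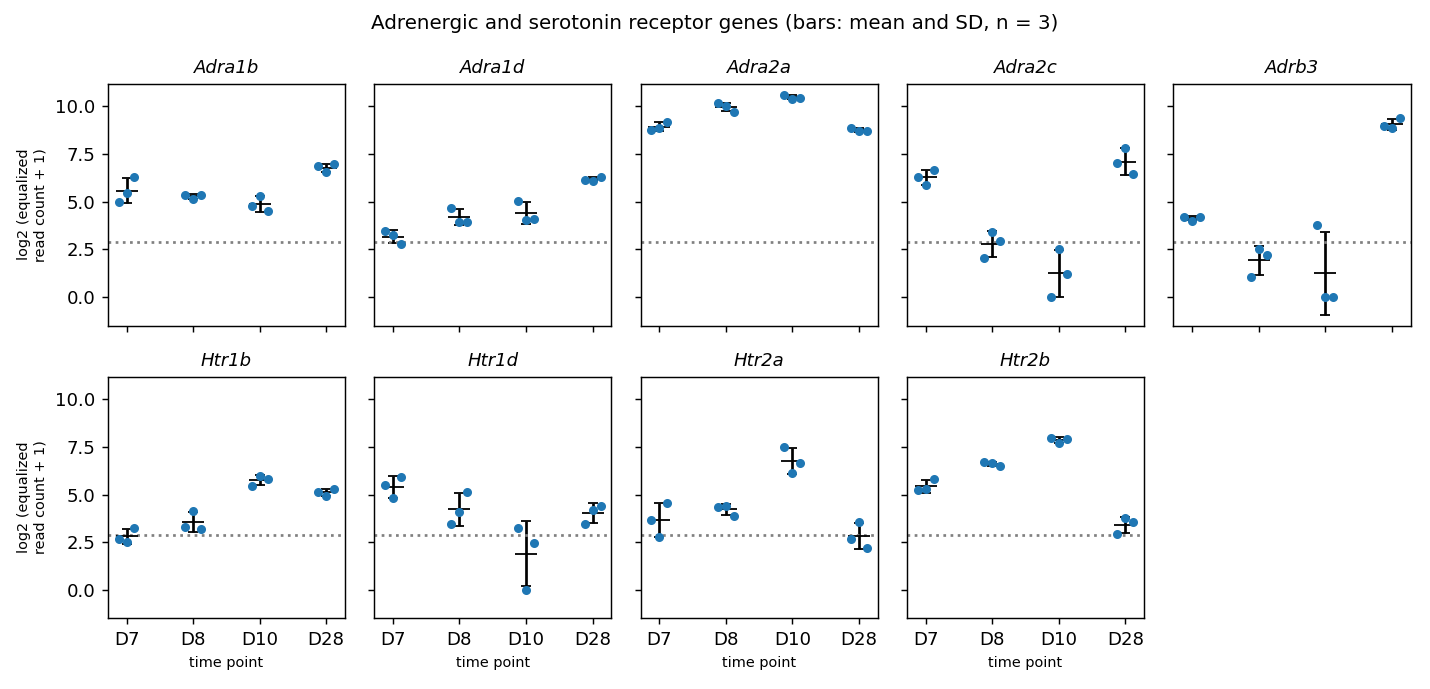
Log2 (equalized read count + 1) of 9 adrenergic and serotonin receptor genes by time point, with 1 point per library and bars for mean and SD (n = 3); the dotted line is the highest 3-read level, 2.87. Adrb3 is highest at D28, and Htr2a and Htr2b are highest at D10 and lowest at D28.

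Serotonin receptor genes rose to D10 in the case of Htr2b, Htr2a and Htr1b. Htr2b (chr1:86099026-86111970, minus strand), whose promoter is printed above, encodes a Gq-coupled receptor and had log2 values of 5.23, 5.27 and 5.84 at D7, 6.72, 6.66 and 6.51 at D8, 7.96, 7.69 and 7.94 at D10, and 2.95, 3.77 and 3.55 at D28. It rose at each step to D10, and D28 was below D7, with no overlap between any 2 time points. D10 against D7 was 2.42 (standard error 0.28, adjusted p = 5e-06, limma). D28 fell from D10 by 4.44 (standard error 0.28, adjusted p = 3.7e-09, limma). The gene lies opposite Psmd1 over 11.8% of its exon length, and Psmd1 stayed between means of 10.85 and 11.33.

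Htr2a (chr14:74640840-74709494, plus strand), also Gq-coupled, had values of 3.69, 2.79 and 4.56 at D7, 4.37, 4.43 and 3.88 at D8, 7.50, 6.16 and 6.67 at D10, and 2.68, 3.55 and 2.22 at D28. The D10 libraries were above all others. D10 exceeded D7 by 3.10 (standard error 0.50, adjusted p = 0.00014, limma) and D28 fell by 3.96 (standard error 0.50, adjusted p = 7.3e-06, limma). Htr1b (chr9:81628291-81633828, minus strand), Gi-coupled, had values of 2.66, 2.52 and 3.26 at D7, 3.29, 4.16 and 3.20 at D8, 5.46, 5.98 and 5.83 at D10, and 5.15, 4.93 and 5.29 at D28. D10 and D28 lay above all D7 and D8 libraries. D10 against D7 was 2.95 (standard error 0.37, adjusted p = 1.5e-05, limma) and D28 against D7 2.31 (standard error 0.37, adjusted p = 0.00016, limma). D430036J16Rik lies opposite 18% of its exon length, with means of at most 0.68.

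Htr1d, the near relative of Htr1b, went the other way, with values of 5.52, 4.80 and 5.92 at D7, 3.45, 4.07 and 5.15 at D8, 3.26, 0 and 2.44 at D10, and 3.45, 4.22 and 4.43 at D28. The D10 libraries were the lowest, and D10 replicate 2 had no reads. At D10 against D7 it fell by 3.52 (standard error 0.69, adjusted p = 0.00075, limma). It fell by 2.57 without D10 replicate 2 and fell by 4.20 without D10 replicate 1. The step from D8 to D10 (-2.32) was lost without D10 replicate 2 (-1.37) or D8 replicate 3 (-1.86), and the rise to D28 (2.14) without D10 replicate 2 (1.19), D28 replicate 2 (2.04) or D28 replicate 3 (1.94).

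The other serotonin, dopamine, muscarinic and histamine genes were low, with highest time-point means under 5. Chrm3, the M3 muscarinic receptor gene, was at 0 at D7 and at 4.16, 3.17 and 4.42 at D10, which is higher by at least 2.06-fold (adjusted p = 0.00052, limma). Drd1, the D1 dopamine receptor gene, was at 3.26, 1.54 and 1.37 at D7 and at 5.12, 3.91 and 3.68 at D10. That rise was 2.18 and was not called without D10 replicate 1 (1.74, adjusted p = 0.051, limma). Drd4 fell by 1.62 at D10 against D7, or by 1.33 with no call without D7 replicate 3. Chrm2, Htr1f, Htr6 and Htr7 had calls that were lost when a library was left out or low values were raised to 2.87. Chrm4 and Hrh1 had no call, with values of 0.94, 1.54 and 0 at D7, 0, 0 and 2.50 at D8, 3.54, 2.03 and 2.44 at D10, and 2.03, 1.22 and 0 at D28 for Chrm4 and 0, 0.74 and 0 at D7, 2.73, 2.17 and 0.66 at D8, 1.81, 0 and 2.44 at D10, and 0, 1.54 and 0.50 at D28 for Hrh1. Another 13 amine receptor symbols did not meet the level.

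Of 17 genes for synthesis, breakdown and transport of amines, 2 were higher and 5 lower at D10 against D7, and 4 were higher and 3 lower at D28 against D10, or 41.2% and 41.2% in all, beside 18.9% and 27.5% of all genes tested. Maob, a monoamine oxidase gene, had values of 6.28, 5.48 and 6.21 at D7, 4.86, 4.51 and 4.81 at D8, 4.77, 4.49 and 5.35 at D10, and 8.59, 8.91 and 8.83 at D28. It rose from D10 to D28 by 3.91 (standard error 0.28, adjusted p = 2.2e-08, limma). Ddc, the decarboxylase of dopamine and serotonin synthesis, fell at D10 against D7 by 3.14 (standard error 0.33, adjusted p = 2.5e-06, limma). Hnmt, which inactivates histamine, rose from D10 to D28 by 6.01 (standard error 0.55, adjusted p = 2.9e-07, limma). The size of that rise leans on low D10 values of 0, 2.84 and 2.44, of which 2 were at or under 3 reads. The Hnmt means were 4.72 at D7 and 7.77 at D28. Tph2, the serotonin synthesis gene of neurons, was at a mean of 4.55 at D10 and 3.25 at D7. The transporter gene Slc6a2, which takes up noradrenaline, fell by 1.58 at D28 against D7 (adjusted p = 8e-04, limma).

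Bradykinin receptors moved in opposite directions. Bdkrb2 (chr12:105563226-105595237, plus strand), the gene of the constitutive bradykinin receptor, had log2 values of 6.20, 6.51 and 6.77 at D7, 8.33, 8.00 and 8.21 at D8, 9.20, 8.56 and 8.64 at D10, and 6.04, 6.20 and 5.38 at D28. D8 and D10 lay above D7 and D28 in all libraries. It rose by 1.68 (standard error 0.24, adjusted p = 0.00017, limma) within a day and by 2.31 (standard error 0.24, adjusted p = 2e-06, limma) to D10, and fell to D28 by 2.93 (standard error 0.24, adjusted p = 8e-08, limma). Its neighbor Bdkrb1 (chr12:105603085-105605428, plus strand), whose product binds kinins that have lost their last arginine, had values of 6.74, 5.89 and 7.08 at D7, 5.82, 4.86 and 5.97 at D8, 4.16, 5.13 and 5.51 at D10, and 6.85, 6.02 and 6.28 at D28. Its mean was lowest at D10, and the D28 libraries lay within the range of those at D7. The D10 change was -1.64 (standard error 0.41, adjusted p = 0.0047, limma) and the return 1.45 (standard error 0.41, adjusted p = 0.0077, limma).

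Genes of the kinin ligands fell where Bdkrb2 rose. The kininogen genes Kng1 and Kng2 encode the precursors of bradykinin, and Ace encodes the enzyme that degrades it. Kng1 had values of 8.00, 8.50 and 8.36 at D7, 6.38, 5.46 and 5.68 at D8, 2.87, 5.18 and 5.30 at D10, and 4.98, 4.58 and 4.73 at D28 and fell by 3.84 at D10 against D7 (adjusted p = 1.6e-05, limma). At D28 against D7 it still stood at -3.52. Kng2 had values of 7.76, 7.91 and 7.96 at D7, 6.72, 5.96 and 5.97 at D8, 4.45, 5.01 and 4.73 at D10, and 7.07, 7.56 and 7.08 at D28 and fell by 3.15 (adjusted p = 1.6e-07, limma), with a rise of 2.51 to D28. Ace had values of 11.91, 11.25 and 12.15 at D7, 10.62, 9.84 and 10.70 at D8, 8.77, 8.35 and 8.24 at D10, and 11.47, 11.36 and 11.83 at D28 and fell by 3.31 (adjusted p = 5.2e-08, limma). Its D28 libraries were back among those of D7.

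Endothelin receptors differed too. Ednrb (chr14:103814625-103844402, minus strand), which binds all endothelins, had log2 values of 4.49, 5.97 and 6.21 at D7, 7.77, 7.63 and 7.16 at D8, 8.33, 7.81 and 7.93 at D10, and 4.15, 3.77 and 3.26 at D28. D8 and D10 lay above all D7 libraries and D28 below them. The changes were 1.97 (standard error 0.38, adjusted p = 0.0019, limma) for D8 against D7, 2.47 (standard error 0.38, adjusted p = 1e-04, limma) for D10 against D7 and -4.29 (standard error 0.38, adjusted p = 2e-07, limma) for D28 against D10. Beside this, the summed log2 level of 9 endothelial markers was 6.02 to 6.44 at D7, 8.18 to 8.94 at D8, 8.69 to 9.08 at D10 and 4.52 to 6.03 at D28. Vwf led this sum, with means from 3.36 to 8.65, while Tie1 was at 0 at D10, and 4 of the 9 markers were called higher at D8 and 2 at D10 against D7. The part of such cells in the Ednrb change was not tested.

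Ednra, the endothelin 1 receptor gene, had values of 7.97, 8.09 and 8.45 at D7, 8.12, 6.97 and 7.31 at D8, 7.11, 7.41 and 7.48 at D10, and 8.00, 8.59 and 8.81 at D28. D10 and D28 did not overlap, and the difference between D10 and D7 was under the limit. The rise to D28 was 1.13 (standard error 0.27, adjusted p = 0.0021, limma) and fell to 0.96 without D28 replicate 3. Of the ligand genes, Edn1 had values of 3.45, 4.30 and 3.45 at D7, 4.86, 3.71 and 3.88 at D8, 1.81, 0 and 2.44 at D10, and 5.55, 5.26 and 4.80 at D28 and was at least 1.81-fold lower at D10 than at D7 and at least 5.03-fold higher at D28 than at D10. Edn2 was at least 2.31-fold lower at D10 than at D7. The converting enzyme gene Ece1 rose from D10 to D28 by 1.07 (standard error 0.10, adjusted p = 5.1e-07, limma).

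The peptide pairs that remain were low as receptors. Nmur1 was near the 3-read level and its 1 call, D10 against D7, was lost with low values raised to 2.87, as were those of Npffr2. Npffr1 had no call, with values of 0.94, 0 and 1.37 at D7, all 0 at D8, 2.87, 2.03 and 0 at D10, and 0, 0 and 2.95 at D28. Nmu, the gene of the neuromedin U ligand, had values of 2.66, 3.27 and 2.03 at D7, 7.06, 6.71 and 6.31 at D8, 6.83, 7.87 and 7.78 at D10, and 2.68, 4.19 and 3.07 at D28. It was in the D8 and D10 libraries far above D7 and D28, while Nmur1 was not higher there and Nmur2 did not meet the level. Of the 10 peptide and processing genes tested, 1 was higher and 5 lower at D10 against D7, and 7 were higher and 1 lower at D28 against D10, or 60% and 80% in all, beside 18.9% and 27.5% of all genes tested.

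**Figure D5:**
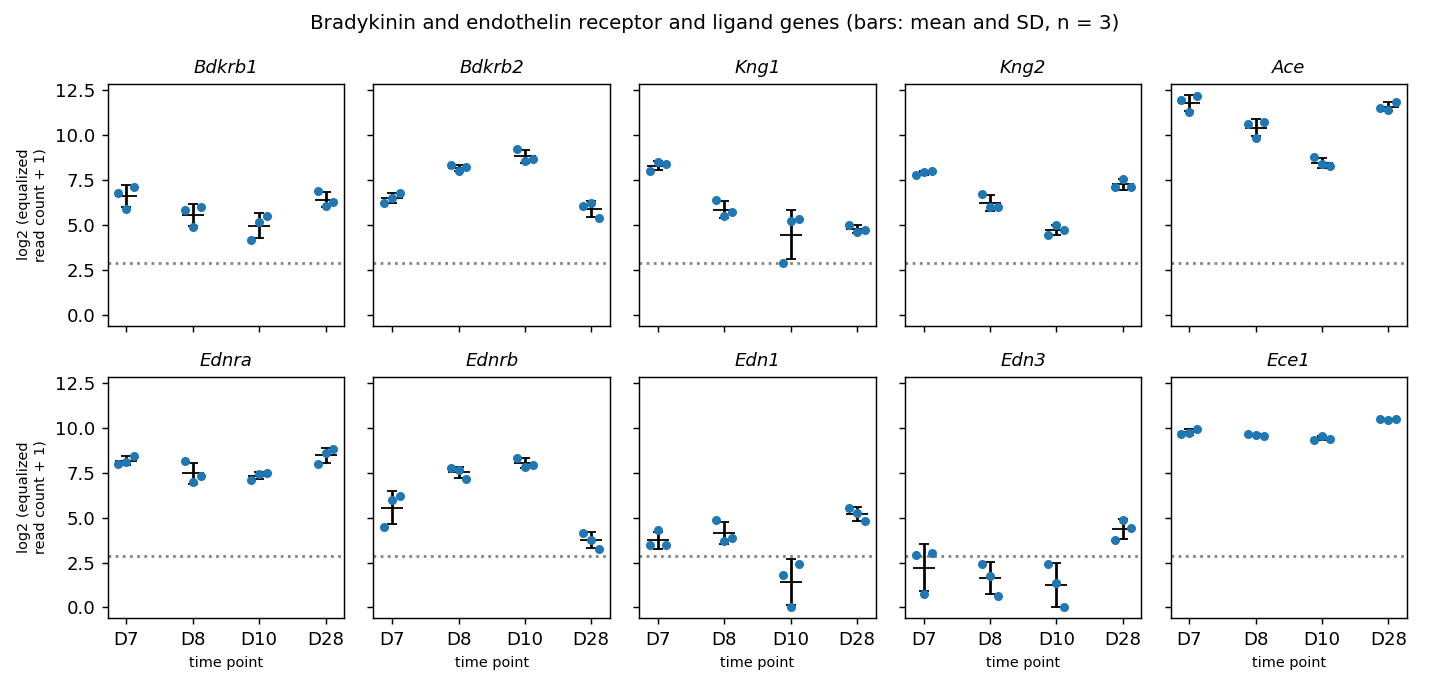
Log2 (equalized read count + 1) of bradykinin (top) and endothelin (bottom) receptor genes and of genes for their ligands and processing enzymes, with 1 point per library and bars for mean and SD (n = 3); the dotted line is the highest 3-read level, 2.87. Bdkrb2 and Ednrb are highest at D10, where Bdkrb1, Kng2, Ace and Edn1 are at their lowest means.

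Gpr symbols made up 50 of the 98 genes and 19 of them had a call in some comparison, or 38%, the share being 38.2% over all genes tested. At D10 against D7 8 were higher and 3 lower (22% in all, beside 18.9% of all genes tested), and at D28 against D10 3 were higher and 10 lower (26%, beside 27.5%). Gpr107 and Gpr108, which encode Golgi proteins, were the highest without a call. Gpr107 had log2 values of 11.58, 11.49 and 11.73 at D7, 11.42, 11.40 and 11.39 at D8, 11.10, 11.05 and 11.12 at D10, and 11.11, 11.14 and 11.10 at D28. Gpr108 had values of 11.23, 11.06 and 11.24 at D7, 11.39, 11.35 and 11.34 at D8, 11.03, 10.94 and 10.92 at D10, and 11.10, 11.21 and 11.10 at D28. Both were near level over the 12 libraries.

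Proton-sensing receptors, which respond to acid outside the cell, include Gpr132, Gpr4 and Gpr65. Gpr132 had values of 4.35, 2.52 and 4.64 at D7, 5.47, 5.87 and 6.36 at D8, 6.42, 5.13 and 5.43 at D10, and 0, 0 and 1.81 at D28. At D28 2 libraries had no reads and the third was low. D28 fell from D10 by 5.06 (standard error 0.61, adjusted p = 4.8e-06, limma). Over the alternative runs this change lay between -5.77 and -2.48 and was called in each. The calls of the D8 and D10 rises over D7 did not hold with each library left out. That at D8 (2.06) was lost without D7 replicate 2 (1.41), D8 replicate 2 (2.08, adjusted p = 0.066, limma) or D8 replicate 3 (1.83), and that at D10 (1.82) without D7 replicate 2 (1.17) or D10 replicate 1 (1.44). D28 against D7, at -3.23, was -1.08 with low values raised to 2.87 and was then not called. Gpr4 and Gpr65 stayed at or near the 3-read level with no call.

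Receptors of fatty acids and zinc are also among the Gpr symbols. Gpr84, a receptor gene for medium-chain fatty acids, had values of 2.91, 2.95 and 3.45 at D7, 4.89, 5.49 and 5.23 at D8, 5.12, 5.23 and 5.54 at D10, and 2.03, 1.84 and 3.07 at D28. D8 and D10 were above D7 and D28 without overlap. It rose by 2.10 (standard error 0.40, adjusted p = 0.0017, limma) at D8 and by 2.20 (standard error 0.40, adjusted p = 0.00044, limma) at D10. An antisense gene, Gm49482, covers 39.5% of its exon length. Gpr39 (chr1:125676995-125873862, plus strand), which responds to zinc and whose promoter is printed above, had values of 2.37, 2.52 and 4.00 at D7, 5.22, 5.66 and 5.12 at D8, 5.19, 5.51 and 5.72 at D10, and 1.12, 0 and 2.03 at D28. D8 and D10 again lay above D7 and D28. D10 against D7 was 2.51 (standard error 0.54, adjusted p = 0.0015, limma) and D28 fell from D10 by 4.42 (standard error 0.54, adjusted p = 5.3e-06, limma). The change from D10 to D28 lay between -4.92 and -2.24 over the alternative runs and was called in each. D28 against D7 (-1.92) was not called without D28 replicate 2 (-1.39), without D7 replicate 3 (-1.40) or with low values raised to 2.87 (-0.38). Lypd1 lies opposite 39.9% of its exons, and its means did not exceed 1.28.

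Further Gpr genes with a D10 peak were Gpr137b, Gpr176 and Gpr63. Gpr137b had values of 7.60, 8.09 and 8.05 at D7, 8.76, 9.05 and 8.81 at D8, 9.74, 9.29 and 9.49 at D10, and 7.53, 7.58 and 7.46 at D28. The D10 libraries were above all others. D10 exceeded D7 by 1.60 (standard error 0.16, adjusted p = 1.3e-06, limma) and D28 fell by 1.98 (adjusted p = 6.5e-08, limma). Its near copy Gpr137b-ps had means of 7.18, 8.16, 8.75 and 7.02 over the time points, so reads of the pair may be split. Gpr176, an orphan Gpr gene, had values of 8.06, 7.62 and 8.31 at D7, 9.27, 8.68 and 8.72 at D8, 9.65, 9.09 and 9.34 at D10, and 6.97, 7.56 and 7.56 at D28. It rose to D10 by 1.36 (standard error 0.22, adjusted p = 0.00016, limma) and fell to D28 by 2.00 (adjusted p = 2.2e-06, limma). Its D28 libraries were below all others. Gpr63 had values of 4.14, 4.30 and 4.42 at D7, 3.45, 3.26 and 4.14 at D8, 6.39, 5.59 and 5.61 at D10, and 4.58, 3.45 and 4.16 at D28. The rise came between D8 and D10, at 2.25 (standard error 0.39, adjusted p = 0.00067, limma).

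Gpr155 and Gpr146 had their highest values at D28. Gpr155, the lysosomal cholesterol sensor gene, had values of 6.49, 6.47 and 6.40 at D7, 6.51, 6.18 and 6.34 at D8, 6.00, 5.55 and 5.68 at D10, and 7.74, 7.86 and 7.40 at D28. D28 lay above all other libraries, by 1.21 (standard error 0.21, adjusted p = 3e-04, limma) against D7. Gpr146 had values of 7.20, 6.86 and 6.89 at D7, 7.18, 7.14 and 7.41 at D8, 7.94, 7.17 and 7.68 at D10, and 8.17, 8.57 and 8.46 at D28 and rose by 1.42 (standard error 0.20, adjusted p = 4.9e-05, limma).

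Gpr161, which restrains hedgehog signaling at the primary cilium, had values of 7.25, 7.13 and 6.96 at D7, 7.58, 7.36 and 7.55 at D8, 7.67, 7.45 and 7.49 at D10, and 6.35, 5.93 and 6.22 at D28. The D28 libraries were below all others. It fell from D10 to D28 by 1.37 (standard error 0.18, adjusted p = 1.2e-05, limma). Gpr141 had values of 6.20, 5.80 and 6.42 at D7, 5.54, 6.11 and 6.07 at D8, 6.16, 6.54 and 6.10 at D10, and 4.86, 2.03 and 4.05 at D28 and D28 was lowest. It fell to D28 from D10 by 2.62 (standard error 0.51, adjusted p = 0.0005, limma) and by 1.81 without D28 replicate 2. Gpr153 had values of 11.36, 10.99 and 11.46 at D7, 10.31, 10.49 and 10.58 at D8, 9.99, 10.30 and 10.29 at D10, and 9.75, 9.95 and 9.74 at D28. It was lower at each later time point than at D7, and D28 against D7 was -1.46 (standard error 0.13, adjusted p = 5.2e-07, limma). The D10 fall of 1.08 was -0.97 without D10 replicate 1 and -0.98 without D7 replicate 3, under the fold limit.

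The other called Gpr genes were low. Gpr75 had values of 0, 0.74 and 0 at D7, 2.73, 2.17 and 2.22 at D8, 2.44, 2.50 and 2.79 at D10, and 2.68, 2.32 and 1.81 at D28 and was called higher at D8, D10 and D28 against D7, yet with low values raised to 2.87 it differed by 0 in each. Gpr20, Gpr21, Gpr55, Gpr62 and Gpr183 had 1 or 2 calls each, and of these all but that of Gpr55 were lost without a single library and all were lost with low values raised to 2.87. Gpr62 was at 3.45, 3.45 and 4.00 at D7 and at 1.81, 0 and 2.44 at D10. Gpr55 was at 2.03, 2.52 and 3.36 at D8 and at 0 at D10. Gpr183 was highest in D28 replicate 2, at 2.32, the library with the high macrophage marker sum.

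No call was made for 29 other Gpr genes. The best covered were Gpr180, with values from 9.75 to 11.17, and Gpr137, with values from 8.66 to 9.41. Gpr89 lay between 8.05 and 8.87, Gpr157 between 7.27 and 8.39, and Gpr35 between 7.13 and 8.21. Gpr162 ran from 5.77 to 7.77. Gpr19, Gpr173 and Gpr27 had means over all libraries of 6.30, 5.88 and 5.72. Gpr85, Gpr135, Gpr179, Gpr137c, Gpr45, Gpr17, Gpr160 and Gpr182 had means from 3.34 to 4.52, and Gpr3 of 2.44. Another 10 had means of at most 1.26, and they were Gpr4, Gpr50, Gpr61, Gpr158, Gpr151, Gpr171, Gpr174, Gpr52, Gpr65 and Gpr22. Another 26 Gpr symbols did not meet the level.

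Genes downstream of the receptors were counted by list. Of 13 G protein alpha subunit genes 2 were lower at D10 against D7, and 2 were higher and 3 lower at D28 against D10, or 15.4% and 38.5% in all, beside 18.9% and 27.5% of all genes tested. Gnas, the Gs subunit gene, had values of 9.65, 8.86 and 9.58 at D7, 8.48, 8.73 and 8.64 at D8, 8.15, 8.21 and 8.56 at D10, and 9.85, 9.69 and 9.71 at D28. It fell at D10 against D7 by 1.06 (adjusted p = 0.00022, limma) and rose to D28 by 1.45 (standard error 0.18, adjusted p = 6.6e-06, limma). Gna14, of the Gq group, fell by 1.64 at D10 and by 2.75 at D28 against D7 (adjusted p = 0.004 and 6.2e-05, limma). Of 16 beta and gamma subunit genes 2 were higher and 4 lower at D10 against D7, and 5 were higher and 3 lower at D28 against D10, or 37.5% and 50% in all, beside the same shares of all genes.

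Of 18 RGS genes, 2 were higher and 3 lower at D10 against D7, and 6 were higher and 3 lower at D28 against D10, or 27.8% and 50% in all, beside 18.9% and 27.5% of all genes tested. Rgs4 had values of 9.63, 9.57 and 9.55 at D7, 7.90, 8.22 and 8.05 at D8, 7.32, 7.51 and 7.26 at D10, and 5.93, 6.42 and 6.40 at D28 and was lower at each later time point, with D28 against D7 at -3.33 (standard error 0.16, adjusted p = 1.1e-09, limma). Rgs16 had values of 6.65, 6.08 and 6.01 at D7, 7.32, 6.96 and 7.23 at D8, 7.91, 8.53 and 8.78 at D10, and 4.86, 4.66 and 5.77 at D28. It rose to D10 by 2.16 (standard error 0.30, adjusted p = 3.8e-05, limma) and fell to D28 by 3.31 (adjusted p = 2.5e-07, limma). Rgs5 had values of 6.80, 6.61 and 5.78 at D7, 6.34, 5.68 and 5.51 at D8, 5.64, 6.01 and 5.35 at D10, and 9.84, 10.75 and 10.87 at D28, with the D28 libraries above the rest, by 4.09 (standard error 0.32, adjusted p = 1.2e-07, limma) against D7. Among 10 kinase and arrestin genes 1 was higher and 1 lower at D10 against D7, and 2 were higher and 1 lower at D28 against D10, or 20% and 30% in all, beside 18.9% and 27.5% of all genes tested. Grk5, a receptor kinase gene, rose by 1.79 (standard error 0.12, adjusted p = 3.3e-08, limma) at D28 against D7.

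Of 31 genes for adenylyl cyclases, phosphodiesterases, phospholipase C beta and protein kinase A, 3 were higher and 2 lower at D10 against D7, and 8 were higher and 2 lower at D28 against D10, or 16.1% and 32.3% in all, beside 18.9% and 27.5% of all genes tested. Adcy5 had values of 8.32, 7.83 and 8.62 at D7, 6.75, 6.16 and 6.24 at D8, 5.64, 5.74 and 6.41 at D10, and 9.0, 9.09 and 9.56 at D28. It fell at D10 against D7 by 2.32 (adjusted p = 3.8e-06, limma) and rose to D28 by 3.29 (standard error 0.26, adjusted p = 5.1e-08, limma), the direction in which Adrb3 moved. Adcy7 had values of 9.82, 9.40 and 9.56 at D7, 9.73, 10.03 and 9.84 at D8, 9.74, 10.64 and 10.43 at D10, and 6.18, 6.36 and 5.93 at D28. Its D28 libraries were the lowest, at -3.44 against D7 (adjusted p = 5.2e-09, limma). Pde3b, a phosphodiesterase gene of adipocytes among other cells, rose by 1.66 (standard error 0.15, adjusted p = 4.5e-07, limma) at D28 against D7, and Prkar2b, a regulatory subunit gene of protein kinase A, by 1.94 (standard error 0.15, adjusted p = 8.7e-08, limma). Beside these values stand the adipocyte markers given with Adrb3, and their part was not tested.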

How the data were processed

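RNA-seq libraries of 12 pellets, 3 at each of 4 time points, were analyzed. Per the labels and the study's methods, reads were trimmed with Trimmomatic 0.36, aligned with HISAT2 and counted with HTSeq, and Cufflinks is also named in the submitters' processing notes. The authors equalized the counts between libraries and deposited log2 of the equalized count plus 1. The notes name the mouse build GRCm38, whereas the study's methods name the human build hg38. The gene symbols in the table are those of mouse, and GRCm38 was used. Equalization gives all libraries nearly the same distribution, so total depth is not kept, and relative depth and the level of 3 reads were read from the steps between the lowest values. Because these log2 values are not counts, a count test was not used.

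Values were compared with limma 3.58.1 in R 4.3.3, with a mean-variance trend, on the 17674 genes whose log2 value was at least 1 in 3 or more libraries, with Benjamini-Hochberg adjustment over all of them in each of 5 comparisons. The scripts were tested on simulated data. Where all 3 libraries of a group held 3 reads or fewer, a fold change was given as a bound against the highest 3-read level of any library. Genes were named with their values if they were called and their highest time-point mean was at least 5, and so were up to 2 genes per family without a call and with the highest levels. Genes named outside this rule were chosen after their values were seen. The members and gene lists were chosen with earlier results of these data known. Gene positions follow GENCODE M21 on GRCm38, promoters come from RefSeq on GRCm38.p6, and figures were drawn with matplotlib 3.10.9 in Python 3.11.15. Protein sequences were not analysed here. Some genes count in the totals and are not reported here by name. Alternatives covered the filter, scaling, pseudocount, low values, replicate block, call rule, fold limit and each library left out.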

Additional observations from a re-analysis of the deposited data

How the results depend on the processing

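Of the 131 calls of single receptor genes, 94 held with each library left out in turn and 37 were lost without at least 1 library. With values under 2.87 raised to that level 31 were lost, and under the study's own rule, an unadjusted test of each pair of groups, 11 were lost. No call changed sign in any alternative run, and 69 held in all of them other than the limit of 2 on the log2 fold change. Median-of-ratios scaling moved the median of all genes for D28 against D10 from -0.10 to 0.01. In D10 against D8 the higher calls numbered 4 with a mean of at least 3 required, 5 higher and 3 lower were left with a pseudocount of 10, and 5 higher and 4 lower with low values raised. Under the study's own rule 8 genes were lower in D8 against D7. With a log2 fold change of at least 2 required, 4 were higher and 2 lower in D8 against D7, 4 lower in D10 against D8, 13 higher and 10 lower in D10 against D7, 9 higher and 10 lower in D28 against D10, and 7 higher and 4 lower in D28 against D7, while 6 genes peaked at D10 and 7 changed early or late. With the adjusted p alone, by limma, 11 were lower in D8 against D7, 12 lower in D10 against D8 and 21 lower in D28 against D7. In either direction that rule took 23.5%, 44.9% and 35.7% of the receptor genes in D10 against D8, D28 against D10 and D28 against D7, less than the 28.8%, 52.4% and 37.3% of all genes, while in the other alternatives the receptor share was above that of all genes in each comparison, other than without replicate 2 in D10 against D8 (8.16% beside 9.44%). With single libraries or replicate numbers left out, D8 against D7 gave 3 to 11 higher and 3 to 6 lower, D10 against D8 4 to 10 higher and 2 to 8 lower, D10 against D7 15 to 23 higher and 11 to 22 lower, D28 against D10 14 to 18 higher and 17 to 21 lower, and D28 against D7 11 to 15 higher and 7 to 12 lower. D10 peaks then numbered 7 to 14, D10 dips 2 to 6, and early or late changes 9 to 14. With only genes that reached 1 at 2 or more time points, chosen after seeing the data, 20 of 93 were higher and 18 lower in D10 against D7, or 21.5% and 19.4%, beside 8.48% and 10.4% of all 17606 such genes. The cause of these shifts was not tested.

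Same-numbered libraries of different time points did not deviate together, with 0 of 18 pairs correlated over 0.1 (median -0.017, across genes). The values thus gave no sign of a pairing by number. Correlations alone cannot tell whether same-numbered pellets shared an origin, which the labels do not state. With the replicate block 22 receptor genes were higher and 19 lower in D10 against D7, and 2 single calls were lost, those of Adrb1 and Adrb3 in D8 against D7.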
